A study of Mus musculus with 3 samples.

Results

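The transcript levels described here are those of hepatocytes from lean, fasted adult mice, read from a single microarray. The array held RNA of wild-type male C57BL/6 mice that were put on a standard diet at 6 weeks of age and killed 16 weeks later, at 22 weeks, after a night without food. Liver cells were freed with collagenase, total RNA was taken up in QIAzol and cleaned on RNeasy columns, and Cy3-labelled cRNA was hybridised to a single-colour Agilent mouse array. How many mice contributed RNA is not given in the labels, nor is the purity of the hepatocytes. It is 1 of 3 arrays of the series, and the other 2, which held hepatocytes of high-fat-fed mice treated with IgG or with an antibody to the integrin VLA-4, were not analysed here. There was no replicate of this array and no fed or female counterpart, so each value is a single measurement, no test was possible, and nothing below is a response to fasting, diet or sex.

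All 31827 gene names on the array were ranked. The level of a gene is the background-subtracted signal of its brightest probe divided by the 75th percentile of the 43020 non-control spots, so a level of 1 is the signal below which 75% of the spots lay. For a typical probe well above background the scanner software estimated an error of 10.1% of the signal, and the median SD between repeat spots of a probe was 0.08 on the log2 scale over 251 probes well above background. The number of arrays limits the precision, since neither figure covers the spread between mice or cell preparations. A microarray level ranks probes rather than molecules, because probes for the same transcript bind with different strength. Genes are therefore grouped in wide bands, and the order of neighbours within a band has no meaning.

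Hepatocytes make up most of the mass of the liver. They secrete most plasma proteins, clear ammonia through the urea cycle, and make bile acids from cholesterol. In fasting they also release glucose made from lactate and amino acids and turn fatty acids into ketone bodies, the latter under the nuclear receptor PPAR-alpha. The receptor is encoded by Ppara.

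The brightest gene was Apoa2, which encodes a structural protein of high-density lipoprotein, at a level of 919, which was 1285-fold above the median gene well above background. A gene was called well above background by the scanner software in 18164 of 31827 cases (57.1%), with a median level of 0.715 among those called. RIKEN clone names (45.1% of 3250) and predicted gene names (45.6% of 3090), which the 57.1% includes, were called less often. The brightest 1% of names (318 genes, 0.999% of all) had levels of 130.3 or more and carried 42.4% of the summed signal. The brightest 5% (1591 genes, 5% of all) reached down to 26.4 and carried 79.2%. The mid-range band, from the 40th to the 60th percentile of genes well above background, held 3633 genes (11.4% of all names) with levels from 0.353 to 1.43 and only 1.36% of the signal. The 13663 genes not well above background carried 0.0731%. The 10 brightest carried 3.77% and the 100 brightest 22.8%. No spot was saturated.

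**Figure D1:**
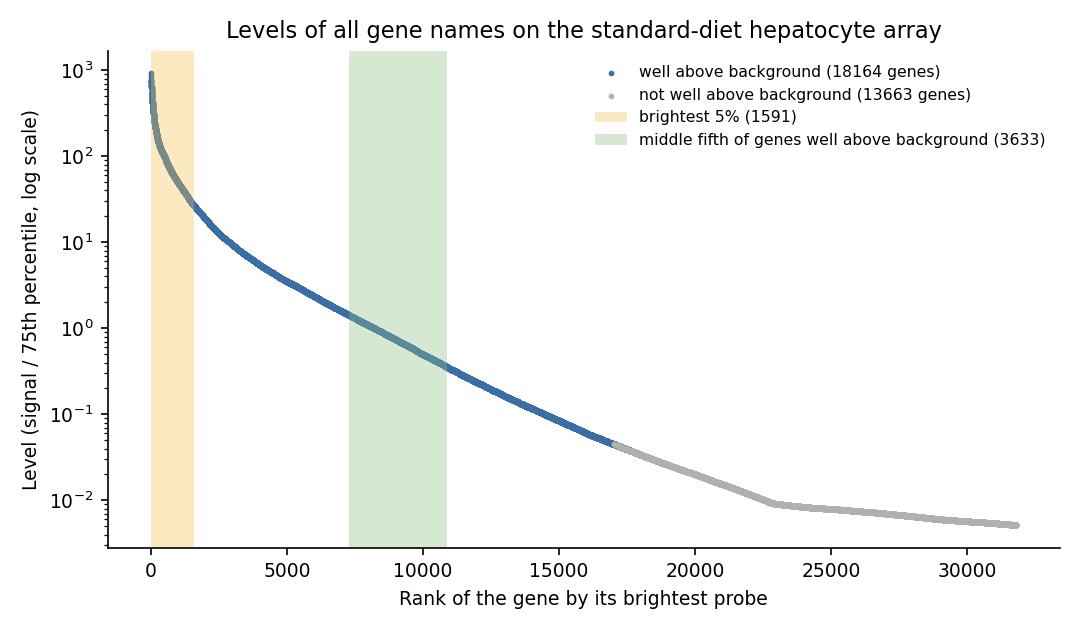
Level of every gene name (vertical axis, log scale, signal over the array's 75th percentile) against its rank (horizontal axis), 1 point per gene. Blue points are the 18164 genes well above background and grey points the 13663 that were not; the shaded bands mark the brightest 5% (1591 genes) and the mid-range band (3633 genes), and the curve falls steeply only within the brightest band.

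Markers of the labelled cell type were bright, which does not show how pure the cells were, as no intact liver was measured. All 18 hepatocyte markers fell in the brightest 5% and 12 of them in the brightest 1%. The highest were Serpina1a, an inhibitor of neutrophil elastase, at 874, the plasma carrier albumin (Alb) at 747 and the ethanol-oxidising P450 enzyme Cyp2e1 at 680. The lowest was Tdo2, which opens the ring of tryptophan, at 40.5. Cps1, the entry enzyme of the urea cycle, stood at 56.0 and G6pc, which releases free glucose, at 61.5. Of 8 Y-linked genes 4 were well above background: Eif2s3y at 5.21, Ddx3y at 2.69, Kdm5d at 0.0991 and Uty at 0.0471. Sry, Zfy1, Zfy2 and Usp9y were not. Xist, the transcript of the inactive X chromosome, was not well above background at 0.00801, and its antisense partner Tsix was, at 0.0609.

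Many of the brightest genes encode secreted proteins. Of 37 plasma carrier and binding proteins on the array, all were well above background, 33 lay in the brightest 5% and 24 in the brightest 1%, with a median level of 262. These 37 genes carried 5.99% of the summed signal. Together with the apolipoproteins, complement, clotting, major urinary protein and hormone lists they formed 143 secreted or secretion-linked genes that carried 12.2% of the signal. Of the 143, 32 were among the 100 brightest genes of the array. For scale, the 3090 predicted gene names on the array carried 12.7% of the signal.

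The Serpina1 protease inhibitors led the carrier list. Serpina1a read 874, Serpina1e 814, Serpina1d 740 and Serpina1c 632. These genes are near-identical copies, and the brightest probes of Serpina1a and Serpina1c each share bases with another gene's probe, so their separate levels are uncertain. Their probes lie within chr12:105002930-105185349 (build mm9). Next to albumin stood Ambp at 736, the precursor of alpha-1-microglobulin, and the iron carrier transferrin (Trf) at 632. The haemoglobin-binding protein haptoglobin (Hp) read 611, the mineral-binding fetuin Ahsg 595, and the vitamin D carrier Gc 495. The retinol carrier Rbp4 stood at 488. Near the median of the list were Itih4, a heavy chain of the inter-alpha-trypsin inhibitor family, at 262 and the selenium carrier Selenop at 276. The exceptions at the bottom were Serpina6, the corticosteroid carrier, at 9.05, the pentraxin Apcs at 2.67 and the thyroxine carrier Serpina7 at 0.159. Serpina7 was the single member of the list below a level of 1.

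Apolipoproteins and lipoprotein assembly genes, which form and remodel the coat of lipoprotein particles, had a median of 85.1. All 21 genes of the list were well above background, 13 were in the brightest 5% and 9 in the brightest 1%. Apoa2 at 919 and Apoe, the ligand for remnant uptake, at 720 were followed by Apoc1 at 528. The gene nearest the list's median was Apof at 85.1. The dimmest were the cholesterol exporter Abca1 at 5.31, hepatic lipase (Lipc) at 1.72 and the phospholipid transfer protein Pltp at 0.801, which act on lipoproteins rather than coat them. Probes of Apoc2, Apoc4, Apoc1 and Apoe, which are in the brightest 1%, sit side by side at chr7:20257027-20281791 (mm9), and those of Apoa1 and Apoc3 at chr9:46037921-46041193.

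The clotting cascade and complement showed a wider range than the carriers. Of 27 clotting genes 25 were well above background and 15 in the brightest 5%. The fibrinogen chains Fgb at 565 and Fgg at 495 stood at the top; the third chain, Fga, read 37.7 on the brighter of its 2 probes. F10 was listed at 658, but on a probe that holds a repeat shared with probes of other genes, and its other probe read 113. The bottom of the list was made of genes known mainly from endothelial cells and platelets or macrophages: Vwf, the carrier of factor VIII, at 0.0330, with F13a1 and the plasminogen activator Plat not well above background. Of 23 complement genes all were well above background and 14 were in the brightest 5%. C3, on which the pathways converge, read 748, C8g 206 and C4b 144. The median of the list was Masp2, a protease of the lectin pathway, at 27.8. At the low end were properdin (Cfp) at 0.984, Cfd, best known from fat tissue, at 0.148 and C7 at 0.0375.

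Major urinary proteins, pheromone carriers that male mice secrete from the liver into urine, were in the brightest 1% for 7 of the 8 genes whose array name begins with Mup. Mup20 (darcin) read 617, Mup2 542 and Mup5 474, and Mup6 was the exception at 12.6. A further 2 array names that the count leaves out are annotated as major urinary proteins: LOC100189605, named Mup19 in RefSeq, read 690, above the other members, and CU041261.1 read 341. The family is a tandem array of near-identical genes, so the split between members is uncertain. Hormones and growth factors of the liver lay lower: 24 of 27 were well above background, 9 in the brightest 5% and none in the brightest 1%. Igfbp2 read 127, the lipase inhibitor Angptl4 116 and Fgl1 83.5. Igfbp4 at 8.50 was at the median. Epo, Hgf and Ghrhr were not well above background. Acute phase genes were well above background in all 26 cases and spread widely: Hp, Fgb and Fgg led, whereas Il1rn at 0.0795, Cd14 at 0.111 and Steap4 at 0.485 were at the bottom. Saa3, Lcn2 and Orm3, which are low in an uninflamed liver, were in the mid-range band at 0.944, 0.661 and 0.512.

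**Figure D2:**
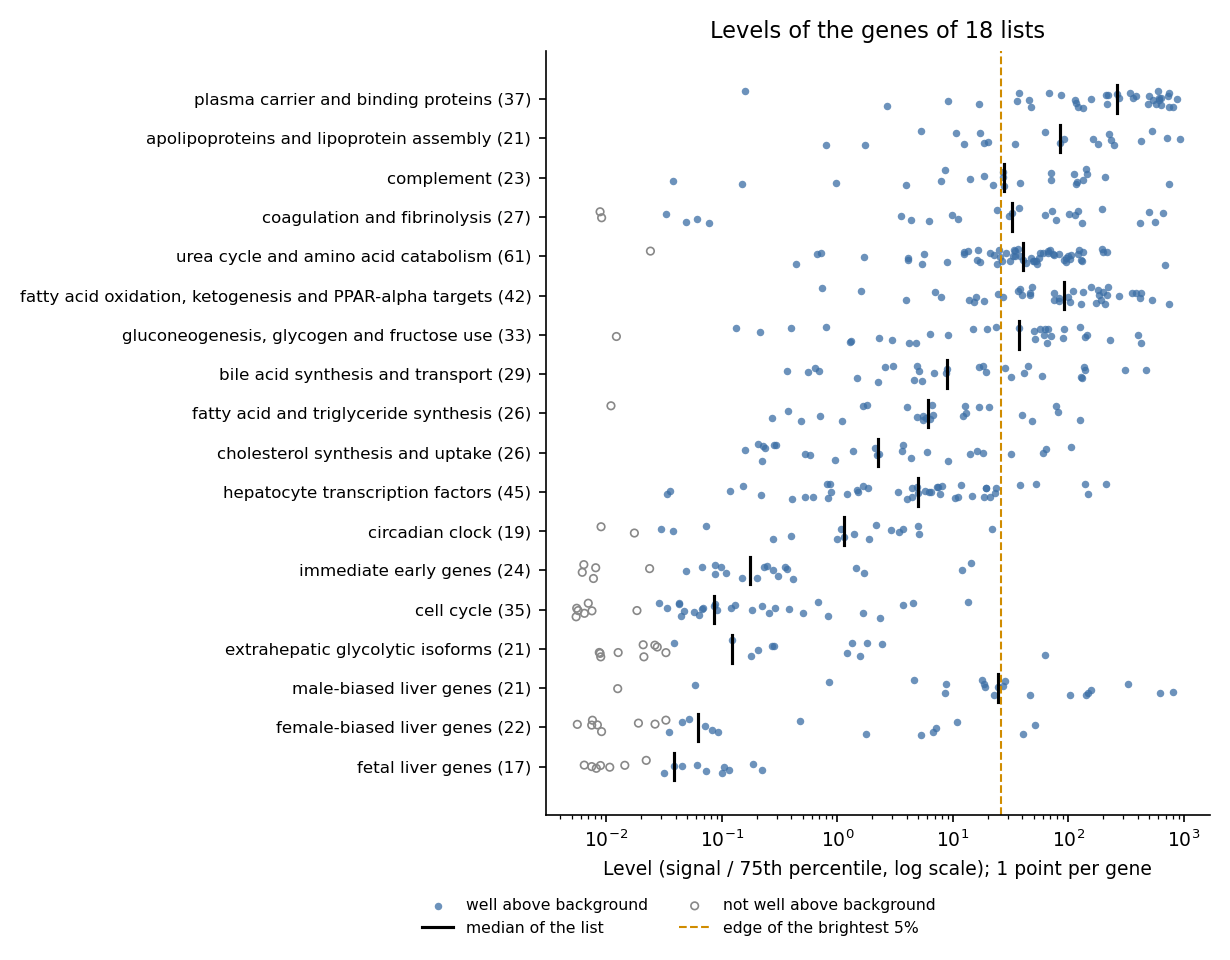
Levels (horizontal axis, log scale) of the genes of 18 lists, 1 point per gene with the number of measured genes in brackets; filled points were well above background, open ones were not, black bars are list medians and the dashed line marks the edge of the brightest 5% at 26.4. Medians run from 262 for plasma carriers to 0.0382 for fetal liver genes, and open points appear mainly in the clock, immediate early, cell cycle, extrahepatic isoform, female-biased and fetal lists.

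Of 61 genes of the urea cycle and amino acid breakdown, 60 were well above background and 40 in the brightest 5%, with a median of 40.5. Bhmt, which remethylates homocysteine with betaine, read 692, Ass1 217 and Gnmt, which disposes of methyl groups, 198. The urea cycle enzymes, listed here as a pathway, were Cps1 at 56.0, Otc at 33.4, Ass1 at 217, Asl at 82.4 and Arg1 at 133, all in the brightest 5%. Low in the list were the branched-chain transaminases, of which Bcat2 read 0.719 and Bcat1 was not well above background, alongside Acmsd at 0.665 and Amt, of the glycine cleavage system, at 0.442. The first step of branched-chain breakdown is known to take place mostly outside the liver.

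In the list of gluconeogenesis, glycogen and fructose use, 32 of 33 genes were well above background and 17 in the brightest 5%. Fbp1, a committed step of gluconeogenesis, read 423, and Pck1, the cytosolic carboxykinase, 228. Pygl, the liver glycogen phosphorylase, stood at 51.7. The liver glycolytic enzymes Pfkl and Pklr were in the mid-range band at 0.793 and 0.396, as was the co-activator Ppargc1a at 1.30, and the mitochondrial carboxykinase Pck2 was not well above background. Of 21 isoforms of glycolysis and glucose uptake that serve other tissues, 12 were well above background and 1, the aldolase Aldoa at 63.0, was in the brightest 5%. Hexokinase 2 (Hk2), the muscle mutase Pgam2 and the neuronal glucose transporter Slc2a3 were not well above background. Pkm at 0.123 was at the median of that list.

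Fatty acid oxidation was the brightest metabolic list. All 42 genes of oxidation, ketogenesis and known PPAR-alpha targets were well above background, 32 were in the brightest 5% and 17 in the brightest 1%, with a median of 91.1. The omega-hydroxylases Cyp4a14 and Cyp4a10 read 745 and 427, and Fabp1, the fatty acid carrier of the cytosol, 530. The isomerases Eci2 and Eci1, nearest the median, stood at 98.4 and 83.7. Cpt1a, the gate of mitochondrial import, read 46.9. The dimmest was Pdk4 at 0.731, the kinase that shuts off pyruvate oxidation, in the mid-range band, after Acot2 at 1.60 and Acads at 3.92. Ppara itself read 38.5. Probes of Cyp4a14, Cyp4a10 and Cyp4a31 lie at chr4:115158914-115251612 (mm9); these 3 genes are close relatives.

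Fewer genes of lipid synthesis than of oxidation reached the brightest 5%. Of the 26 lipogenic genes, which make fatty acids and triglycerides, 25 were well above background and 5 in the brightest 5%, with a median of 6.10. The desaturase Scd1 at 125, the last enzyme of triglyceride synthesis Dgat2 at 81.0 and Elovl5 at 78.2 led. Fatty acid synthase (Fasn) was in the mid-range band at 0.378, the lipogenic regulator Srebf1 read 0.273, and Pnpla3 was not well above background. Cholesterol synthesis and uptake was well above background in 26 of 26 genes with 4 in the brightest 5% and a median of 2.25. Ebp, a sterol isomerase, read 106, and Insig2, a retention protein that keeps SREBP in the endoplasmic reticulum, 64.4. Srebf2, the transcription factor of the pathway, was among the lowest at 0.225.

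Bile acid genes were well above background in 29 of 29 cases, with 11 in the brightest 5%. The uptake transporter Slc10a1 (NTCP) read 467, with a further probe at 20.8, the bile acid CoA ligase Slc27a5 309 and Hsd3b7 141. The canalicular exporter Abcc2 at 8.91 stood near the median of 8.91. Slc10a2, the ileal transporter, and Akr1d1, Abcg8 and Atp8b1 were in the mid-range band at 0.690, 0.641, 0.562 and 0.368. Cyp7a1, the rate-limiting enzyme of the classic route, is added here for its role: it read 3.06.

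Drug-handling enzymes covered a wide range. Of 94 cytochrome P450 genes, 72 were well above background, 31 were in the brightest 5% and 10 in the brightest 1%. Cyp2u1, counted among the 10, read 193 on a probe that holds a repeat shared with other genes' probes, and its other probe read 0.187. Cyp4a14 at 745, Cyp2e1 at 680 and Cyp2d26 at 432 led the family, while Cyp2ab1, the aldosterone synthase Cyp11b2 and Cyp24a1, which breaks down vitamin D in kidney, were not well above background. In the narrower list of phase I enzymes and regulators, 51 of 55 were well above background and 26 in the brightest 5%; the inducible Cyp1a1 and Cyp1b1 and the female-biased Cyp3a44 were among the 4 that were not. Conjugating enzymes were well above background in 45 of 48 cases and in the brightest 5% in 20. Gstp2 read 437, Mgst1 377 and Ugt1a6a 206; the last has 3 probes, and its dimmest read 0.100. The sulfotransferases Sult2a1 and Sult3a1 were not well above background.

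Iron and haem genes were well above background in 23 of 24 cases, 8 of them in the brightest 5%. Transferrin read 632 and the ferritin chains Ftl1 and Fth1 417 and 300. The iron exporter Slc40a1 at 6.63 was near the median. Haem oxygenase 1 (Hmox1) and the transferrin receptor Tfrc were in the mid-range band at 1.01 and 0.593, Slc11a2 stood at 0.234, and the intestinal ferroxidase Heph was not well above background.

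Genes of the periportal and pericentral zones, the ends of the liver lobule nearest the portal vein and the central vein, were both present. Of 21 periportal genes all were well above background and 18 in the brightest 5% (median 62.6), led by Alb, Fbp1 and the P450 Cyp2f2 at 259. Pigr, counted among the 18, read 94.8 on a probe that shares bases with probes of other genes. Of 22 pericentral genes all were well above background and 6 in the brightest 5% (median 6.11), led by Cyp2e1, Rgn at 97.3 and Cyp2c50 at 96.3. The lowest pericentral genes were Slc13a3 at 0.327 and the Wnt pathway genes Lgr5 at 0.243 and Axin2 at 0.0436. Glul, the glutamine synthetase of the cells next to the central vein, which is named here for its role, read 16.5. The lists hold different genes and probes, so the medians do not compare the zones.

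Of 21 genes known as higher in male liver, 20 were well above background and 10 in the brightest 5%, with a median of 24.5; Serpina1e, Mup20 and Mup3 (327) led and Gna14 was not well above background. Of 22 known as higher in female liver, 14 (63.6%) were well above background and 2 in the brightest 5%, with a median of 0.0617. The share of all names, clone and predicted names included, was 57.1%. The 2 female-biased genes in the brightest 5% were Cyp2a4 at 51.4, whose probe shares bases with another gene's, and Cyp3a16 at 40.8. Both belong to families of close relatives. Hao2, Sult3a1, Cyp3a44 and A1bg were not well above background. Without a female array these are levels and not differences.

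All 45 transcription factors of the hepatocyte list were well above background, 33 were in the brightest 25% (25% of all genes), 5 in the brightest 5% and 8 in the mid-range band. Atf5 read 214, Hnf4a, a nuclear receptor that maintains hepatocyte identity, 148 and Creb3l3 140. Nr5a2 at 5.05 stood at the median. Gata6, Stat5a, Gata4, the retinoid partner receptor Rxra, the thyroid receptor Thrb, Prox1, Ppard and Nfia lay in the mid-range band between 0.404 and 1.22. Rarb at 0.118, Hnf4g at 0.0355 and Zhx2, which represses fetal genes after birth, at 0.0339 were the dimmest. The circadian clock, read at a single time, was well above background in 17 of 19 genes with none in the brightest 5%. Tef read 21.9, Per1 5.11 and Nfil3 5.02, while the mid-range band held Nr1d2, Clock, Bhlhe40, Arntl and Nr1d1 at 1.41, 1.14, 1.08, 0.997 and 0.397. Bhlhe41 and Per3 were not well above background.

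Lists of the fetal liver, cell division and acute stress had no gene in the brightest 5%, apart from the list that holds chaperones. Their share well above background was at or above the 57.1% of all names, which also counts clone and predicted names. Of 17 fetal genes 10 (58.8%) were well above background, none in the brightest 25%, with a highest level of 0.224 (Lin28a); alpha-fetoprotein (Afp), albumin's fetal relative, is added here and read 0.104, and Igf2bp1, Lin28b and Igf2bp3 were not well above background. Of 35 cell cycle genes 28 (80%) were well above background and 5 in the brightest 25%, led by the cyclin Ccnd3 at 13.5, the cyclin-dependent kinase inhibitor Cdkn1a at 4.55 and the replication clamp Pcna at 3.74; Aurkb, Cenpf and Kif11 were not well above background. Of 24 immediate early genes 19 (79.2%) were well above background and 4 were in the brightest 25%. Jund at 14.3, Jun at 11.98 and Egr1 at 1.70 led, Klf4 read 0.109, and Egr2, Egr3 and Nr4a3 were not well above background. The list of heat shock proteins and endoplasmic reticulum chaperones also holds stress-response genes that are not chaperones, such as Chac1, Ddit3 and Asns. All of its 25 genes were well above background and 13 were in the brightest 5%. Hspa8 read 212, Hsp90ab1 166 and Hspa5 (BiP) 145, whereas Chac1 at 0.187, Hyou1 at 0.249 and Hspa1a at 0.582 stood at the bottom. Whether cell isolation moved these genes was not tested, as no intact liver was measured.

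The protein synthesis and energy machinery filled much of the upper range. Of 84 cytosolic ribosomal protein genes, 81 were well above background, 73 were in the brightest 5% and 20 in the brightest 1%, with a median of 75.7; Rps14 at 289 and Rpl10 at 260 led. The exceptions were the germline and muscle copies Rpl10l, Rpl3l and Rpl39l, which were not well above background. For 34 of the 84 the probe shares 25 bases with a probe of another gene name, many of them processed copies. Of 83 oxidative phosphorylation subunits encoded in the nucleus, 80 were well above background and 61 in the brightest 5% (median 52.7). Cox6a1, the liver form of subunit 6a, read 459; the heart form Cox6a2 read 0.0401, and Cox8b, Cox8c and Cox7b2, of heart muscle and testis, were not well above background. Mitochondrial ribosomal proteins were as often detected (74 of 75) with 11 in the brightest 5% and a median of 10.2. The proteasome was well above background in 37 of 39 subunits and in the brightest 5% in 15, with Psmb5 at 125; the thymus and testis subunits Psmb11 and Psma8 were not.

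The mitochondrial genome itself was represented by 13 probes, all well above background, of which 9 were in the brightest 1% and 12 in the brightest 5%. CYTB read 529, COX1 499, COX2 437 and COX3 291. ND1 read 47.3 and ND5 73.8. ND6 stood far below the other 12, at 0.446, with its probe at chrM:13552-13611 on the minus strand (mm9). The other 12 probes lie on the plus strand. ND6 is known as the only protein gene on the light strand of mouse mitochondrial DNA.

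Members of the mid-range band were largely known genes. A curated RefSeq accession, clone and predicted names left out, was held by 73.9%, against 57.0% of all names, 71.4% of the brightest 1% and 45.5% of genes not well above background. RefSeq lists 77.0% of the band as protein-coding, against 60.2% of all names. Solute carriers, the membrane transporters of small molecules, were spread over the whole scale. Of 344 genes 237 (68.9%) were well above background, 110 were in the brightest 25%, 11 in the brightest 5% and 60 in the mid-range band, and the median of 0.205 lay below that band. Slc10a1, Slc27a5 and the fatty acid importer Slc27a2 (276) led, while Slc6a14, Slc25a31 and Slc9a4 were not well above background. Mid-range genes from other lists included Mogat1 at 0.482 and Gpam at 1.09 of triglyceride synthesis, Sqle at 0.958 and Insig1 at 0.529 of cholesterol synthesis, and the stress factor Ddit3 at 1.16.

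Markers of macrophages and sinusoidal endothelial cells were detected in part, all at levels below those of the 18 hepatocyte markers. Of 25 Kupffer cell and macrophage markers 19 were well above background, none in the brightest 5% and 10 in the mid-range band, with a summed signal of 0.00865% of the total. Itgam read 5.04 on 1 probe and 0.0499 on its dimmest, the receptor Csf1r 2.96 and 0.0783, and Cd5l, a macrophage secretory protein, 2.26 on its only probe. The Kupffer cell lectin Clec4f read 1.04 and Marco 0.947, the complement genes C1qa, C1qb and C1qc 0.404, 0.461 and 0.469, and Spi1, Cd163 and Trem2 were not well above background. Of 23 sinusoidal endothelial markers 20 were well above background (0.0101% of signal), led by the VEGF receptor Kdr at 9.07 with another probe at 0.420, the lectin Clec4g at 2.98 and Egfl7 at 2.40, with the scavenger receptor Stab2 at 1.21 and Stab1 at 0.486 in the mid-range band. The share of these cells in the preparation was not estimated, and whether they account for any level above was not tested.

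Markers of stellate cells, bile ducts, neutrophils and platelets had shares well above background near the 57.1% of all names. That share also counts clone and predicted names, which were called less often. Markers of B cells, T and NK cells and red cells had 21.4%, 42.1% and 46.7%. Of 24 stellate cell and fibroblast markers 13 (54.2%) were well above background; Ecm1 at 1.60 was the highest and Reln, Pdgfrb and Pdgfra were not well above background. Of 16 cholangiocyte markers 9 were, with the anion exchanger Slc4a2 at 13.2, while the epithelial antigen Epcam and keratin 7 (Krt7) were not. Among 15 neutrophil and monocyte markers 8 were well above background, and the single one in the brightest 5%, Csf3r at 66.2, has its only probe sharing bases with another gene's. Among 19 T and NK cell markers 8 were, led by Cd4 at 24.9 (its other probe read 0.0428) and Zap70 at 13.5, while Ncr1, Klrd1 and Gzmb were not. Of 14 B and plasma cell markers 3 were well above background, none above 0.205. Of 15 erythroid markers 7 were, with Alas2 at 9.09 and the globin Hba-a2 at 4.58, and of 14 platelet markers 8, none above 0.225.

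Genes known from unrelated tissues were described in 10 lists. Among 24 muscle and heart genes 5 were well above background, with creatine kinase Ckm, Tnni3 and Casq1 among those that were not, and the troponin Tnnt1 the highest at 1.27. Among 24 brain genes 10 were, led by Snap25 at 2.91, among 21 pancreas genes 7, led by the amylase Amy2a5 at 6.04 (its other probe read 0.459), among 21 testis and germ cell genes 8 and among 16 kidney genes 5. In kidney the transcription factor Pax2 read 12.9 on 1 probe while its dimmest read 0.00796. In the intestine list Fabp2 at 91.4 and Apoa4 at 62.6, which mouse liver also makes, were the 2 in the brightest 5%, with Cdx2, Gif and Lct not well above background. Of these 10 lists of other tissues, 8 had a smaller share of genes well above background than the array as a whole, the exceptions being adipocyte genes (9 of 14) and skin and cornea genes (9 of 15). A further 27 lists with at least 5 measured genes covered hepatocyte functions but also contrasts such as the extrahepatic isoform, fetal and female-biased lists. Of these 27 lists, 26 had a larger share, the exception being the Y-linked genes (4 of 8). In that count the extrahepatic glycolytic isoforms (12 of 21) and the fetal genes (10 of 17) lie close to the share of all genes. The share of all genes also counts clone and predicted names, which were called less often. Of 18143 names with a curated RefSeq accession, clone and predicted names left out, 6212 were not well above background, a smaller part than of all names. A list slightly above the share of all names is therefore not shown to exceed that of curated names.

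**Figure D3:**
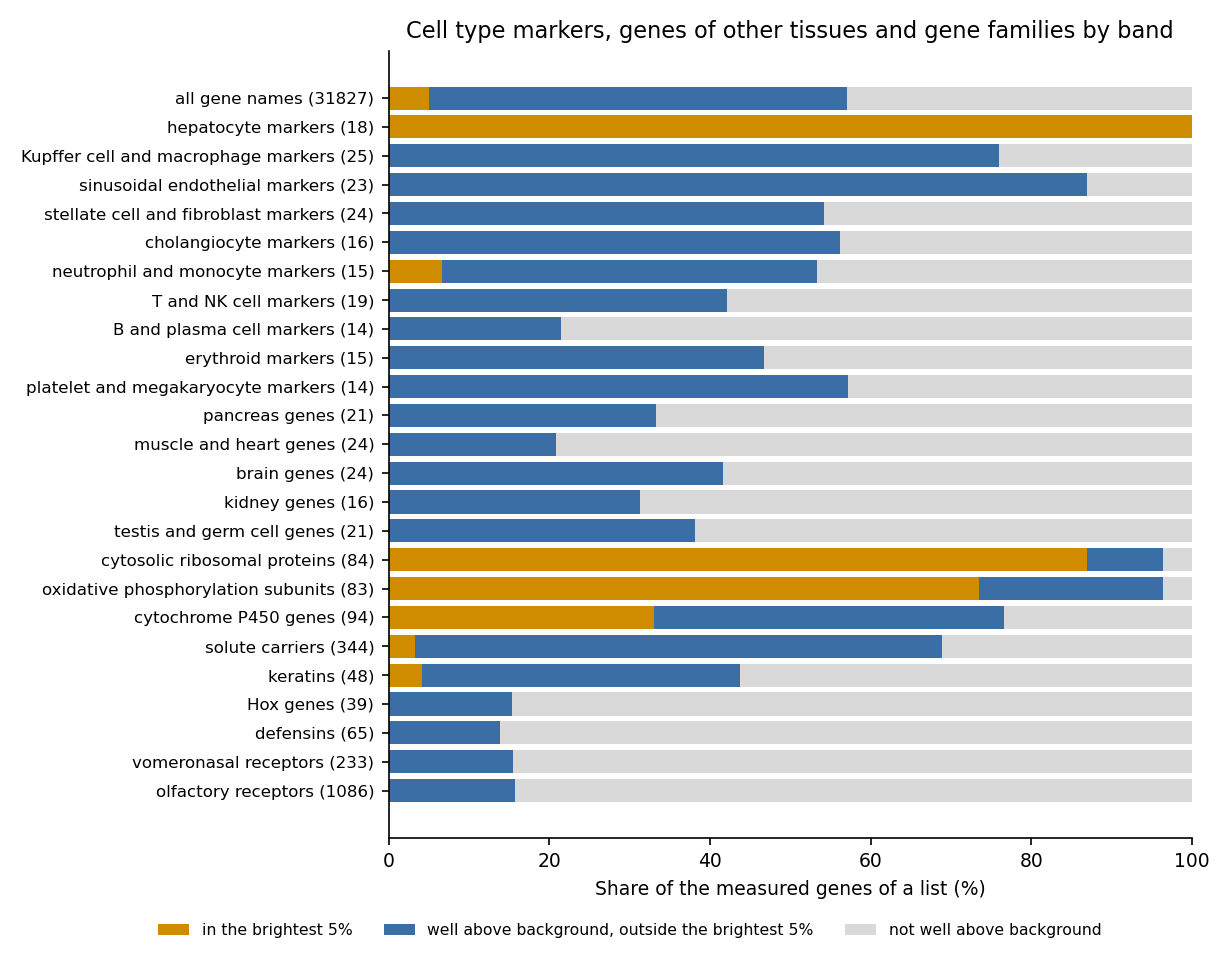
Share of the measured genes of each list (horizontal axis, percent) in the brightest 5%, well above background outside it, and not well above background, with the number of measured genes in brackets and all 31827 gene names on top. All 18 hepatocyte markers are in the brightest 5%, and 170 of 1086 olfactory receptors are well above background.

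Large families that other organs use were mostly not detected. Olfactory receptors, the odorant receptors of the nasal epithelium, were well above background for 170 of 1086 genes (15.7%), with 2 in the brightest 25% and none in the brightest 5%, and a median level of 0.00795. Olfr544 at 6.39 and Olfr1365 at 2.08 were the highest. Vomeronasal pheromone receptors were well above background for 36 of 233 genes (15.5%), led by V1ra3 at 3.07, defensins for 9 of 65, Hox patterning genes for 6 of 39 with none above 0.0729, protocadherins for 11 of 49, and taste receptors for 7 of 38. Among 48 keratins 21 were well above background. Krt18 at 114 and Krt8 at 34.1, the keratin pair of hepatocytes, were the 2 in the brightest 5%, while Krt32 and Krt17 were not well above background. Of 153 negative control spots, 4 (2.61%) were well above background.

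Calls among olfactory receptor probes varied with the composition of the probe. Of 305 receptor probes with over 30 to 40% purines, 97 (31.8%) were well above background, falling to 14.7% at 40 to 50%, 5.63% at 50 to 60% and 12 of 276 (4.35%) at 60 to 70%. The share was 7.40% of 662 receptor probes at over 30 to 40% GC, 22.7% of 467 at 40 to 50% and 37.2% of 43 at 50 to 60%. Over all probes the corresponding shares ran from 65.2% to 49.2% for purines and from 53.3% to 66.8% for GC. The part of composition in single receptor calls was not tested, and the scarcity of probes (43) in the last GC class makes its share imprecise.

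Some names at the top rested on 1 probe or had probes that disagreed. Among the 40 brightest were Exosc2, a subunit of the RNA exosome, at 742, the 18S ribosomal RNA (Rn18s) at 672, the small RNA Rn4.5s at 540, Chchd10 at 540, the potassium channel domain protein Kctd14 at 521, the transcription factor Elk1 at 512 and the zinc finger gene Zfp628 at 473. Exosc2, Rn18s, Rn4.5s and Chchd10 have 1 probe each. Kctd14, Elk1 and Zfp628 have others, whose dimmest read 0.00714, 0.0384 and 0.588. Of 318 genes in the brightest 1%, 111 had several probes, and the brightest exceeded the dimmest by a median of 3.54 on the log2 scale (11.6-fold); in 42 genes the gap was over 32-fold, and in 54 the dimmest probe too was in the brightest 5%. Apoa2 (919 and 647), Serpina1e (814 and 706), C3 (748 and 550) and transferrin (632 and 602) were among those where probes agreed closely, whereas for Chchd2 440 stood against 0.0225. Over all 4916 genes well above background with several probes the median gap was 6.35-fold.

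**Figure D4:**
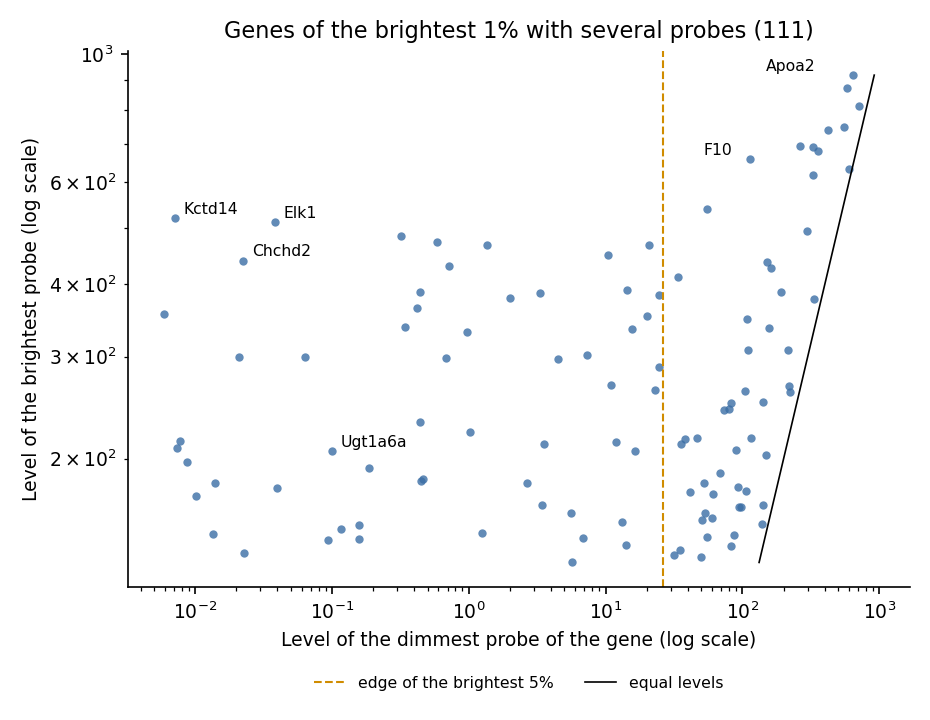
Level of the brightest probe (vertical axis) against that of the dimmest probe (horizontal axis), both on log scales, for the 111 genes of the brightest 1% with several probes, 1 point per gene. The solid line marks equal levels and the dashed line the edge of the brightest 5%; the dimmest probes of 54 genes lie to the right of it, and those of Kctd14 and Elk1 lie at 0.00714 and 0.0384.

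Part of these names shared sequence. A run of 25 identical bases linked 1825 of 39426 probes (4.63%) to a probe of another gene name. The share was 103 of 318 (32.4%) among the brightest probes of the brightest 1%, 29.5% in the brightest 5%, 2.45% in the mid-range band and 3.32% among genes not well above background. The runs that linked the most names in the brightest 1% are given here as stretches of 30 bases of a probe, 5′ to 3′, with the 25 shared bases in capitals.
Sp110, a TG repeat: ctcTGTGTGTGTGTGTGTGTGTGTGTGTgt
A predicted locus, B2-type: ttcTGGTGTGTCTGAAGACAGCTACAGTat
F10, B1-type: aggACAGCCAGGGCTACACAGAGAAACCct

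The TG repeat joined 45 gene names whose 45 probes were all well above background, with a median level of 136 and 24 of the genes in the brightest 1%. The probes were linked in a chain, so not all hold the same 25 bases: the printed run is in 36 of them. Among the bright members were Sp110 (299), Dennd4a (298) and Luc7l2 (231). The dimmest probes of these 3 genes read 0.0208, 0.685 and 0.439. The letters of the second run are those of the B2 family and of the third those of the B1 family, short interspersed repeats found in many copies in mouse genes. The B2-type run was in a group of 10 names with a median of 273, of which 9 genes were in the brightest 1%; 5 of the 10 probes hold the printed run. The B1-type group had 8 names and a median of 404, with 6 in the brightest 1%: F10, Kctd14, Elk1, Ttc38, Med16 and Cxcl11; 4 of the 8 probes hold the printed run. A run of AAG repeats joined 51 names, all 56 of its probes well above background with a median of 71.5, but none in the brightest 1%. Among 14 names joined by a CA repeat the median was 3.05. The part of the shared bases in these levels was not tested. Without the probes that share 25 bases, 220 of the 318 genes stayed in the brightest 1%, and the 100 brightest genes carried 27.3% of the signal. The removal took away the brightest probe of 103 of the 318. The 220 follows largely from that and does not measure the part of the shared bases.

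At the edge of the brightest 1% stood Cbs at 131.4, Plg at 131.1, Fxyd1 at 130.8, Uqcr11 at 130.7 and the organic anion transporter Slco1b2 at 130.3. Just outside stood Fkbp1a at 129.9 and the phospholipid flippase Abcb4 at 129.5, with 3 predicted loci. These levels lie within the scanner error of each other.

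Promoters were read from RefSeq (assembly GRCm38.p6), 250 bases before to 50 after the annotated start, for the 12920 genes of the array that matched by gene and had 1 listed start. The ratio of observed to expected CpG dinucleotides, which are kept in CpG islands and lost elsewhere, had a median of 0.620 over these genes. It was 0.785 in the mid-range band (1795 promoters), 0.488 in the brightest 1% (140 promoters) and 0.278 among genes not well above background (4775 promoters). Thus the brightest 1% and the genes not well above background had lower medians than the mid-range band. The quartiles of the brightest 1%, 0.224 and 0.783, overlapped those of the mid-range band, 0.606 and 0.918. In the wider brightest 5% (633 promoters) the median was 0.683, above that of all these genes. Without genes whose probe shares 25 bases, the brightest 1% (106 promoters) had a median of 0.450. Among bright lists, 24 plasma carrier promoters had a median of 0.171 and 48 ribosomal protein promoters 0.873. The 895 promoters of olfactory receptors, most of which were not well above background, had a median of 0.106. A ratio under 0.35 was found in 22 of 24 plasma carrier promoters, none of 48 ribosomal protein promoters, 33.0% of all and 11.6% of mid-range promoters. The 24 plasma carrier promoters include near-identical gene copies, such as Serpina1d and Serpina1e, so they are not all independent.

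**Figure D5:**
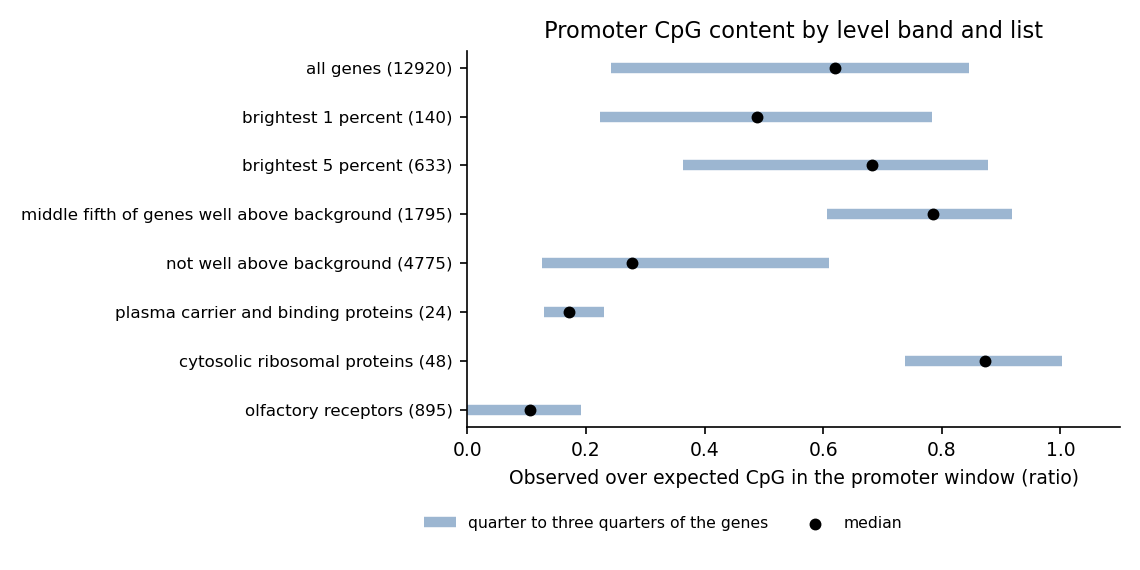
Observed over expected CpG (horizontal axis, ratio) in promoters of 300 bases by band and list, with the number of promoters in brackets; points are medians and bars run from the lower to the upper quartile. The median is 0.785 in the mid-range band, 0.488 in the brightest 1% and 0.278 among genes not well above background.

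The 80 bases before the start are shown for 4 of the brightest plasma carriers, 2 bright ribosomal protein genes, 2 genes at the middle of the mid-range band and an undetected receptor, because they show how the CpG content differed. They run 5′ to 3′ on the gene's strand, with CG in capitals.
Serpina1e: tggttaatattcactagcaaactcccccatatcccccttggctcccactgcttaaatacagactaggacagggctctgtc
Alb: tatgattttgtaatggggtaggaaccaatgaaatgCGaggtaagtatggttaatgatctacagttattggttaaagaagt
Serpina1d: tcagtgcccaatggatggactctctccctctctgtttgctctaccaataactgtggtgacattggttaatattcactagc
Ambp: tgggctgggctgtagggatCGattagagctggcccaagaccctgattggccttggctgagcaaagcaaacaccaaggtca
Rpl10: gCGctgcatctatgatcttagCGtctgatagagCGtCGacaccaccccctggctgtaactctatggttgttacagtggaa
Rpl37: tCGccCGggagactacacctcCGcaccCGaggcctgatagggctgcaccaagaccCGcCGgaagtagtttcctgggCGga
Jmjd8: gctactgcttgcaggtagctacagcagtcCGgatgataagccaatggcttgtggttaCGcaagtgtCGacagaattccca
Crbn: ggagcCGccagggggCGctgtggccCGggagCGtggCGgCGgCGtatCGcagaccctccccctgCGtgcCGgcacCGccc
Olfr1: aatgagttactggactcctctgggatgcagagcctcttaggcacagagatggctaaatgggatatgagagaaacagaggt

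On the GRCm38.p6 assembly the plasma carrier stretches lie at chr12:103956898-103956977 (Serpina1e, minus), chr5:90460790-90460869 (Alb, plus), chr12:103773634-103773713 (Serpina1d, minus) and chr4:63154173-63154252 (Ambp, minus). The others lie at chrX:74270736-74270815 (Rpl10, plus), chr15:5116533-5116612 (Rpl37, plus), chr17:25828963-25829042 (Jmjd8, plus), chr6:106800088-106800167 (Crbn, minus) and chr11:73399496-73399575 (Olfr1, minus), each with its strand. The stretches of Serpina1e, Alb, Serpina1d and Ambp hold 0, 1, 0 and 1 CG. Serpina1e and Serpina1d are near-identical copies, and the end of the Serpina1d stretch repeats the start of the Serpina1e stretch. They are therefore not independent examples. Those of Rpl10 and Rpl37 hold 4 and 7, those of Jmjd8 and Crbn 3 and 11, and that of Olfr1 0. Rpl10 and Rpl37 read 260 and 213, Jmjd8 and Crbn, the latter the substrate receptor of a ubiquitin ligase, 0.715 and 0.714, and Olfr1 was not well above background.

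Of 8 motifs counted in the same promoters, 7 are given, and a match is a description of letters only. TATAAA was searched on the gene's strand in the 40 to 20 bases before the start and the others on both strands of the 300 bases. Over the 12920 promoters of array genes TATAAA was found in 2.96%, against 4.29% in the brightest 1%, 27 of 1795 in the mid-range band and 4.59% among genes not well above background. The GC box GGGCGG was in 49.3%, 47.1%, 68.1% and 30.5% of the same 4 sets, in 1 of 24 plasma carriers, and in 35.2% of all 22862 RefSeq promoters with 1 start. CCAAT was in 39.2%, 47.1%, 37.0% and 39.3%, and in 13 of 24 plasma carriers. TTGCGNAA, known as a C/EBP site, was in 1.01%, 2.86%, 1.06% and 0.607%. CAAAGTCCA, known from HNF4, was in 0.457%, 1.43%, 0.334% and 0.377%. TGTTTAC, known from FOXA factors, was in 3.08%, 4.29%, 2.17% and 3.58%, and in none of the 24 plasma carriers with 1 start; counting a match at any of several starts, it was in 10.3% of plasma carriers and 3.49% of array genes. For TATAAA the same change of rule raised the share of plasma carriers from 8.33% to 17.2%, and for the GC box from 4.17% to 10.3%. The NRF1 motif was in 1.43%, 1.43%, 2.34% and 0.377%. In the brightest 1% these shares rest on 66 promoters each for the GC box and CCAAT and on 6 or fewer for each other motif.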

How the data were processed

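RNA of 1 sample was read on 1 single-colour array. The deposited spot intensities are the scanner software's processed signals, background-subtracted and detrended per the file headers, and the submitters' processing notes name Agilent Feature Extraction (version 11.0.1.1). Spot flags are other values set by that software, per the file headers. A deposited table gives 23206 spots as a linear ratio, which equals processed signal over the array's 75th percentile within a relative deviation of 2e-08, with a column median of 0.787.

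Control spots and 117 non-uniform or outlier spots were left out, spots of a probe were averaged and divided by the 75th percentile (574) and the brightest of a gene's 39426 probes in all was kept. A probe was well above background when at least 50% of its spots were. Through their accessions 66.1% of probes had a RefSeq name; the others keep the array's name, which can be old. Probe positions are on build mm9.

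The members and lists were chosen with earlier results of these data known. Named were the 40 brightest genes, from each list its 3 brightest, 2 nearest the median and 3 dimmest, mid-range members, and genes at the edge of the brightest 1%; of these the text gives a part, and some named genes and 1 motif are not reported here. The urea cycle enzymes, Pygl, Cpt1a, Ppara, Cyp7a1, Glul, Afp, other hepatocyte genes given for their role, and genes with disagreeing or sequence-sharing probes were added after their values were seen, as were the run of 25 bases, the motifs and the CpG limits. The steps were tested on simulated data. Alternatives were kept outlier spots, normexp (offset 50), other probe, spot and name rules, another detection call, other bands and the deposited table. The tools were limma 3.58.1 under R 4.3.3, and pandas 2.3.3, numpy 2.4.6 and matplotlib 3.10.9 under Python 3.11.15.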

Additional observations from a re-analysis of the deposited data

How the results depend on the processing

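No paired analysis was possible because each group has 1 array, and no replicate could be left out. The count of genes well above background ranged from 12779 with RefSeq names only to 23914 with the looser call of positive and significant spots, against 18164, each within 1.5 times. Of the 318 brightest genes, 198 remained with RefSeq names only and 170 in the deposited table, whose smaller number of genes gives a shorter band by construction. With normexp 284 remained, with the mean over probes 248 and with the dimmest probe 234. Only 111 of the 318 have several probes. The level of the others cannot change under the mean or the dimmest probe, so most of the 248 and 234 was fixed in advance. The share of signal in the 100 brightest genes, 22.8%, was 31.1% with RefSeq names only and 27.3% without probes that share 25 bases, both with fewer genes in the sum, and 33.8% for the 200 brightest; the cause of other shifts was not tested. Lists with a larger share in the brightest 5% than all genes numbered 31 to 34, against 32 of 66. The detection share of lists could not be taken from the deposited table, where all 23206 spots are well above background. Of 737 list counts under the alternatives, 683 stayed within 1.5 times and 54 did not, 20 of these under the looser detection call, which raised, for example, olfactory receptors from 170 to 454. Many of the 683 had little room to move. In 30 of 66 lists no gene was in the brightest 5%, and none under both settings was scored as unchanged. Keeping outlier spots brought back only 117 of 43020 spots, and none of its 134 counts moved. The 683 therefore does not measure how stable the lists are. Leaving out probes that share bases and the highest promoter ratio over several starts were chosen after seeing the data; the latter gave 0.546, 0.799 and 0.312 for the brightest 1%, the mid-range band and genes not well above background. Signal near background limits the dim end: repeat spots of probes not well above background had a median SD of 0.44 on the log2 scale over 148 probes, and their levels have no order.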
